A study of Mus musculus with 6 samples.

Results

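The 10 elastic fibre assembly genes examined here encode elastin (Eln), the fibrillins (Fbn1, Fbn2), fibulin-5 (Fbln5), fibulin-4 (Efemp2), 2 lysyl oxidases (Lox, Loxl1), 2 latent TGF-β binding proteins (Ltbp2, Ltbp4) and the microfibril-associated protein Mfap4. They were taken by symbol from the authors' deposited table, and all 10 had a row among its 29322 genes, each symbol with 1 row. The study compared bulk RNA-seq of lung mesenchymal cells from adult mice, 3 libraries of Yeti+/- animals and 3 of wild-type animals. Yeti is a gain-of-function allele for interferon-gamma (IFN-γ), carried here in the heterozygous state. The sort left out cells with CD45 (leukocytes), CD31 (endothelium) or Epcam (epithelium) on their surface, and dead cells by the dye DAPI. Per the labels, both groups received tamoxifen, RNA was extracted from cells called cultured, and neither the strain nor the number of animals behind each library is given. P-values therefore measure the spread between these libraries, which may in part be technical. The authors' deposited table holds for each gene a mean, a fold change and a standard error (SE), without values for single libraries, so whether the groups overlap for a gene is not stated here.

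Elastic fibres give the lung its recoil. Cells secrete tropoelastin, the soluble product of Eln, which is gathered by fibulins, laid down on a scaffold of fibrillin microfibrils and fixed by lysyl oxidases, copper enzymes that cross-link its lysines. In the lung the fibres are made by fibroblasts, myofibroblasts, smooth muscle and mesothelium, mostly while alveoli form, and they are renewed slowly in the adult.

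Eln rose in Yeti mesenchyme and was the 1 member of 10 to pass the test, at 1.76-fold (95% interval 1.34 to 2.30) in the authors' deposited table. None fell. Over the 20212 genes that the authors' deposited table adjusts, 2.84% passed in either direction, 1.85% higher and 0.994% lower in Yeti. The other 9 members had adjusted p-values of 0.172 to 0.999 in the authors' deposited table (DESeq2 Wald test, Benjamini-Hochberg over those genes). Log2 fold changes stood above 0 for 8 members and below 0 for 2 in the authors' deposited table, with a median log2 fold change of 0.27, against a median of 0.00 and 49.8% above 0 over all tested genes. At an unadjusted p under 0.05 the authors' deposited table has 5 members higher and 1 lower, where 5.28% and 4.0% of all tested genes are. Among the 5438 tested genes with a mean of at least 1000 normalized counts, a level that 9 members reach, those shares are 7.72% and 2.8% in the authors' deposited table. The 1 lower member, Fbn2, has a mean of 19.8 and lies outside that set. The members were measured in the same 6 libraries, so these counts are not independent of each other.

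**Figure D1:**
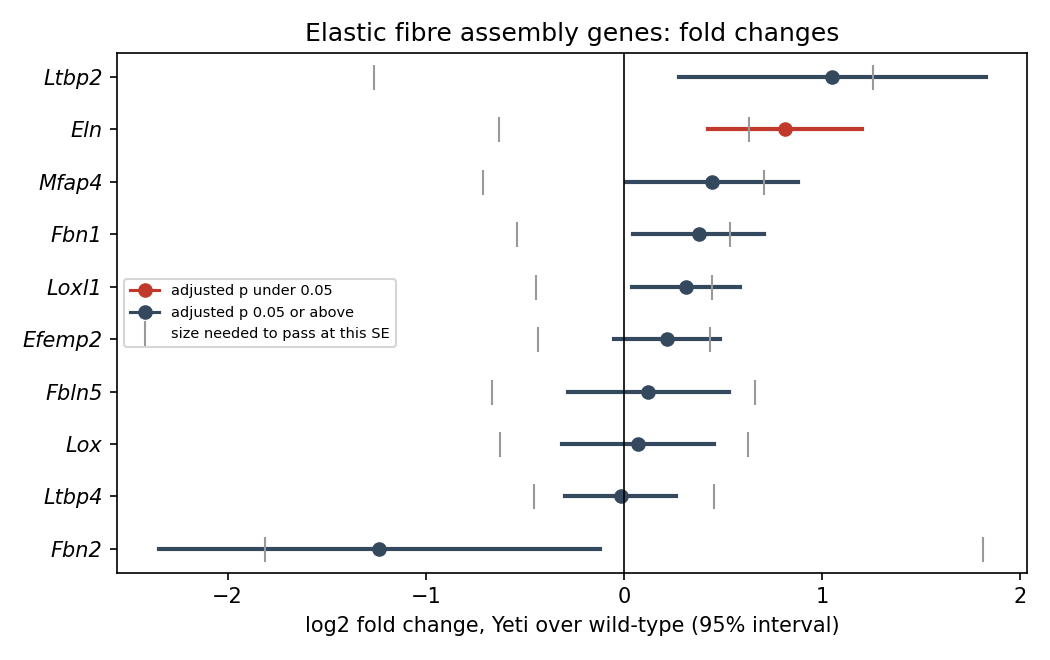
Log2 fold change of each elastic fibre assembly gene (Yeti over wild-type, x axis) with its 95% interval, in the authors' deposited table, and grey ticks at the size that gene would have needed to pass at its own SE. Eln, at 0.81, lies beyond its tick at 0.63, while Ltbp2, at 1.05, falls short of its own at 1.26.

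Elastin is the core protein of the fibre, and its transcript was among the most counted in these cells. Eln (ENSMUSG00000029675, GRCm38 chromosome 5, 134702593 to 134747323, minus strand) had a mean of 107276 normalized counts, rank 11 of the 29322 genes in the authors' deposited table, and held 0.403% of the summed mean counts. Derived from the mean and the fold change in the authors' deposited table, its fitted level was 77807 normalized counts in wild-type libraries and 136745 in Yeti libraries. The log2 fold change was 0.81 ± 0.20 (SE), adjusted p = 0.00266, in the authors' deposited table, rank 288 by p. At that SE a log2 fold change of 0.63 would have been enough to pass. The SE corresponds to a between-library coefficient of variation (CV) of 16.8%. In these bulk libraries, more cells of an elastin-making type and more Eln RNA per cell cannot be told apart. Summed over the 10 members, the fitted levels from the authors' deposited table were 366610 in wild-type and 466254 in Yeti, 1.27-fold, and Eln made up 59.1% of that difference. Without Eln the summed levels were 288803 and 329509.

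Around elastin lies the microfibril scaffold, built mainly of fibrillin-1 in adult tissue and of fibrillin-1 and fibrillin-2 in the embryo. The fitted level of Fbn1 (chromosome 2, 125300594 to 125507993) was 34543 normalized counts in wild-type libraries and 44878 in Yeti libraries by the authors' deposited table. Its log2 fold change of 0.38 ± 0.17 (SE), adjusted p = 0.364 in the authors' deposited table, did not pass, with a fold between 1.03 and 1.63 by its 95% interval. Fbn2 stood at the other end of the abundance range, with a fitted level of 27.8 normalized counts in wild-type libraries and 11.8 in Yeti libraries from the authors' deposited table. That amounts to about 119 normalized counts over all 6 libraries. Its log2 fold change of -1.23 ± 0.57 (SE), adjusted p = 0.402 in the authors' deposited table, did not pass either, and at its SE a 3.52-fold difference would have been needed. Per kilobase of exon, the Fbn1 level was 1352 times that of Fbn2 in wild-type from the fitted levels. The fibrillin transcript in these cells was thus nearly all Fbn1 in both groups. Mfap4, an integrin-binding glycoprotein that attaches to microfibrils and tropoelastin (chromosome 11, 61485431 to 61488900), stood at fitted levels of 50317 and 68522 normalized counts by the authors' deposited table. The authors' deposited table puts its log2 fold change at 0.45 ± 0.22 (SE), adjusted p = 0.506, so Mfap4 did not pass, and the lower end of its 95% interval was 1.01-fold.

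The latent TGF-β binding proteins are structural relatives of the fibrillins that differ in role. Ltbp4 helps fibulin-5 deposit elastin and holds latent TGF-β, and Ltbp2 binds fibrillin-1 and fibulin-5 but not latent TGF-β. Ltbp4 (chromosome 7, 27305136 to 27337692) was the most abundant member by count and rank 4 of all genes in the authors' deposited table, and had a fitted level of 150816 normalized counts in wild-type libraries and 149061 in Yeti libraries. Its log2 fold change was -0.02 ± 0.14 (SE), adjusted p = 0.999, in the authors' deposited table, and the 95% interval ran from 0.814-fold to 1.20-fold, so a change of the size of Eln's central estimate lies outside it. Ltbp2 (chromosome 12, 84783212 to 84876532) had a fitted level of 4711 and 9774 normalized counts, the widest relative gap upwards among the members, from the authors' deposited table. The log2 fold change was 1.05 ± 0.39 (SE), adjusted p = 0.172, in the authors' deposited table, and the 95% interval ran from 1.21-fold to 3.55-fold. Its CV was 33.5%, against 11.4% to 18.9% in the other 8 abundant members, and at its SE 2.39-fold would have been needed to pass. Per kilobase, Ltbp4 exceeded Ltbp2 40.5 times in wild-type and 19.3 times in Yeti by the fitted levels. Whether the fold changes of Ltbp2 and Ltbp4 differ was not tested, since that needs values per library.

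The fibulins that escort tropoelastin and the enzymes that cross-link it did not pass. Fbln5, which tethers tropoelastin to integrins and microfibrils (chromosome 12, 101746565 to 101819055), had a fitted level of 7359 normalized counts in wild-type libraries and 8015 in Yeti libraries by the authors' deposited table, a log2 difference of 0.12 ± 0.21 (SE), adjusted p = 0.999. Efemp2, the fibulin that brings pro-lysyl oxidase to tropoelastin (chromosome 19, 5473954 to 5482517), stood at 2903 and 3372 by the authors' deposited table, a log2 difference of 0.22 ± 0.14 (SE), adjusted p = 0.764. Both 95% intervals hold 0, and they end at 1.44-fold for Fbln5 and at 1.40-fold for Efemp2. Lox, the founding lysyl oxidase, acts on collagen as well as elastin. By the authors' deposited table Lox had a fitted level of 8002 normalized counts in wild-type libraries and 8418 in Yeti libraries, a log2 difference of 0.07 ± 0.20 (SE), adjusted p = 0.999. Loxl1, the family member bound to elastic fibres through fibulin-5 (chromosome 9, 58287738 to 58313186), stood at 30124 and 37459 by the authors' deposited table, a log2 difference of 0.31 ± 0.14 (SE), adjusted p = 0.355. Per kilobase Loxl1 was the more abundant of the 2 oxidases, 5.46 times Lox in wild-type and 6.45 times in Yeti by the fitted levels.

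**Figure D2:**
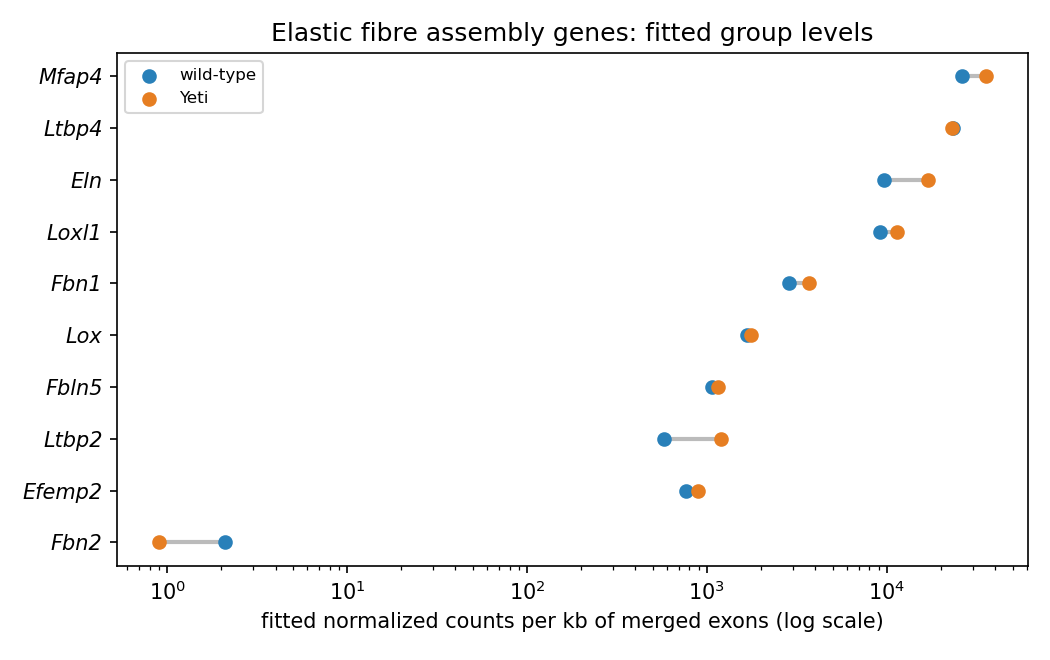
Fitted level per group, in normalized counts per kilobase of merged exons (x axis, log scale), for each member, derived from the authors' deposited table; blue points are wild-type and orange points Yeti. The points of Ltbp4 coincide at about 23200, those of Eln lie at 9608 and 16886, and Fbn2 lies far below the rest at 2.11 and 0.895.

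Set in order of level per kilobase over both groups, the members ran Mfap4 (30915 normalized counts per kilobase), Ltbp4 (23200), Eln (13247), Loxl1 (10249), Fbn1 (3274), Lox (1718), Fbln5 (1112), Ltbp2 (885), Efemp2 (828) and last Fbn2, from the authors' deposited means. Of the 9 neighbouring pairs in that order, 4 had ranges of 1 between-library SD that overlap: Mfap4 and Ltbp4, Eln and Loxl1, Fbln5 and Ltbp2, and Ltbp2 and Efemp2. Eln's place depends on its length, since the merged exons span 8098 bases and the longest transcript 3853. Divided by the longest transcript, its level was 27842 per kilobase and that of Ltbp4 27839. The order of Ltbp2 and Efemp2 turned as well, at 1070 and 1191.

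**Figure D3:**
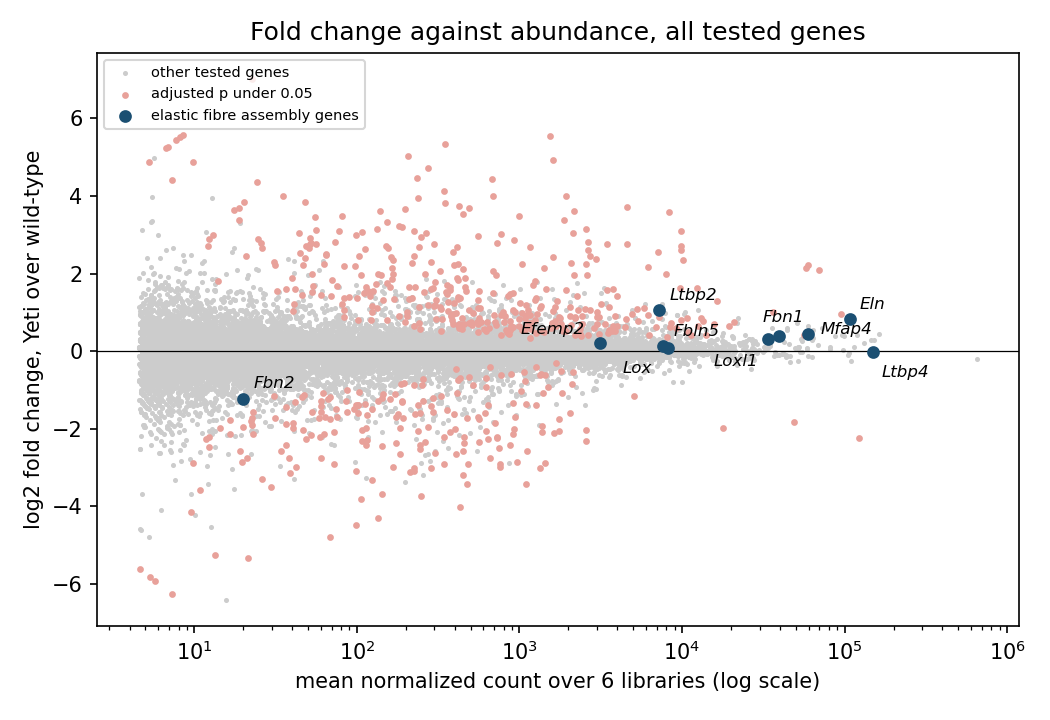
Log2 fold change (y axis) against mean normalized count over 6 libraries (x axis, log scale) for every gene with an adjusted p in the authors' deposited table, with genes past an adjusted p of 0.05 in red and the elastic fibre assembly genes in dark blue. Eln lies at 107276 counts and 0.81, while Fbn2, at 19.8 counts, lies where fold changes scatter widely.

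Other genes at the same loci can share reads with the members, and the strand setting of the authors' counting is not given in the sources used here. By GENCODE M21, 7 of the 10 members overlap another gene on the opposite strand, and Fbln5, Loxl1 and Ltbp4 do not. For Fbn1 and Gm9913 the shared stretch is 20.1% of the Fbn1 exonic bases, for Ltbp2 and D030025P21Rik 9.34%, and for Eln and Gm30003 3.30%. These partners were scarce, at means of 24.2, 9.77 and 3.30 normalized counts in the authors' deposited table. Their log2 fold changes were 0.63 ± 0.44 (SE) for Gm9913, 1.11 ± 0.65 (SE) for D030025P21Rik and -0.51 ± 0.99 (SE) for Gm30003 in the authors' deposited table, of the same sign as Fbn1 and Ltbp2 and of the opposite sign to Eln. Gm9913 and D030025P21Rik did not pass, and Gm30003 has no adjusted p in the authors' deposited table. Mus81 shares 4.57% of the Efemp2 exonic bases and Mapk7 4.63% of those of Mfap4, and their means were 713 and 1420 normalized counts, with log2 fold changes of -0.11 ± 0.16 (SE) and -0.07 ± 0.16 (SE), in the authors' deposited table. The shared stretches of Fbn2 and Lox cover 0.976% and 0.628% of their exonic bases. How many reads such overlaps took from a member cannot be seen in these values.

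Promoter sequence was searched because IFN-γ acts on many genes through DNA elements near their starts, and it is shown for 2 members, Fbn1 and Ltbp2. RefSeq entries (GRCm38.p6) matched 5 of the 10 members, Fbn1, Ltbp2, Ltbp4, Fbln5 and Efemp2, with 10 start sites in all. Eln, Fbn2, Lox, Loxl1 and Mfap4 were not matched. In the 250 bases before each RefSeq start, motifs were searched on both strands, allowing overlaps, and 4 are given here. The core of the interferon-stimulated response element, searched as GAAA, any 2 bases and GAAA, was in 1 of the 10, that of Fbn1, and in 2.98% of all 32851 windows of that length. The match in Fbn1 lies 97 to 88 bases before the RefSeq start, is on the strand opposite to the gene, and sits in a run of pyrimidines. The AP-1 motif TGANTCA and the TATA box TATAAA were in 0 of the 10, against 6.75% and 12.4% of all windows. The Smad box CAGAC, bound by the TGF-β effectors, was in 3 of the 10 and in 42.2% of all windows. The Ltbp2 window holds it at 205 to 201 and, on the other strand, at 176 to 172 bases before the start. Fbln5 holds it too, at 199 to 195 and 15 to 11, and so does Efemp2, at 170 to 166 and 54 to 50. The 2 windows follow, 5′ to 3′ on the gene's strand, with the response element match in Fbn1 and the Smad boxes in Ltbp2 in capitals. They lie at chr2:125506439-125506688 (Fbn1, minus strand) and chr12:84876492-84876741 (Ltbp2, minus strand). The Fbn1 window lies inside the gene as GENCODE M21 bounds it, and the Ltbp2 window in part, since GENCODE places the outermost starts further upstream. A match describes letters only, and no binding was measured here.
Fbn1: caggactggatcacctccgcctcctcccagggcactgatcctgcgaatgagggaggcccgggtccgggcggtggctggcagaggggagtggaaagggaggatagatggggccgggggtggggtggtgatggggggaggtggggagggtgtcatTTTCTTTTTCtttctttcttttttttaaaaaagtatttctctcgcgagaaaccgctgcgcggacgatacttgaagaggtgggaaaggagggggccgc
Ltbp2: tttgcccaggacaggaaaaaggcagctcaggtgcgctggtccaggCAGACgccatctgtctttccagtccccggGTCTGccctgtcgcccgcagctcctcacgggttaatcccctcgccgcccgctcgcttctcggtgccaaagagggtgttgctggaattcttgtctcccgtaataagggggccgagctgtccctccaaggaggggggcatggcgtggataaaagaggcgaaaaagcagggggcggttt

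Beyond the 10 members, 6 further lists of the pathway held 83 genes, and the authors' deposited table adjusts the p of 76 of them. In all, 2 rose and 0 fell by the authors' deposited table, or 2.63%, below the 2.84% of all tested genes. The median log2 fold change of the 76 was 0.12. For the counts at an unadjusted p under 0.05 below, the shares over all tested genes are 5.28% higher and 4.0% lower. Of 21 microfibril-associated and related matrix genes 0 passed, with a median of 0.04 and 1 higher at an unadjusted p under 0.05, in the authors' deposited table. That gene was also the most abundant of the list, Bgn, which encodes the proteoglycan biglycan, at 0.41 ± 0.14 (SE), adjusted p = 0.0842, by the authors' deposited table. Among 12 tested genes for further cross-linking enzymes, their activation, copper supply and chaperones, 1 rose in the authors' deposited table, Atox1, the chaperone that hands copper to the secretory pathway. By the authors' deposited table it had a fitted level of 516 normalized counts in wild-type libraries and 782 in Yeti libraries, a log2 difference of 0.60 ± 0.18 (SE), adjusted p = 0.0339. The most abundant of that list, Pcolce2, an enhancer of procollagen processing, stood at -0.23 ± 0.28 (SE) in the authors' deposited table.

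No gene in the lists for elastin binding or breakdown passed. Of 8 genes for the elastin receptor complex and integrins 0 passed in the authors' deposited table, with 0 at an unadjusted p under 0.05, and the most abundant, Itgb1, stood at 0.07 ± 0.13 (SE). Of 12 tested elastin-cutting and related proteases 0 passed, with a median of 0.25 and 2 higher at an unadjusted p under 0.05, in the authors' deposited table. The gelatinase gene Mmp2, the most abundant of these, stood at 0.59 ± 0.23 (SE), adjusted p = 0.226, by the authors' deposited table. Of 8 tested protease inhibitors 0 passed, with a median of 0.19 and 2 higher at an unadjusted p under 0.05, and Timp2, the most abundant, stood at -0.16 ± 0.15 (SE) in the authors' deposited table. In the TGF-β list 1 of 15 rose in the authors' deposited table, the inhibitory Smad7, at 0.46 ± 0.14 (SE), adjusted p = 0.0458. In the authors' deposited table the median of that list was 0.17, and before adjustment 5 of its genes had a p under 0.05, 3 with a log2 fold change above 0 and 2 below it. The 2 lower genes, Tgfbi at -0.55 ± 0.23 (SE) and Tgfbr3 at -0.30 ± 0.14 (SE), did not pass, with adjusted p-values of 0.284 and 0.394 in the authors' deposited table. With the low-count genes kept in the adjustment, the p of Smad7 became 0.0662. Tgfbr2, the most abundant of the list, stood at 0.13 ± 0.14 (SE) in the authors' deposited table.

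**Figure D4:**
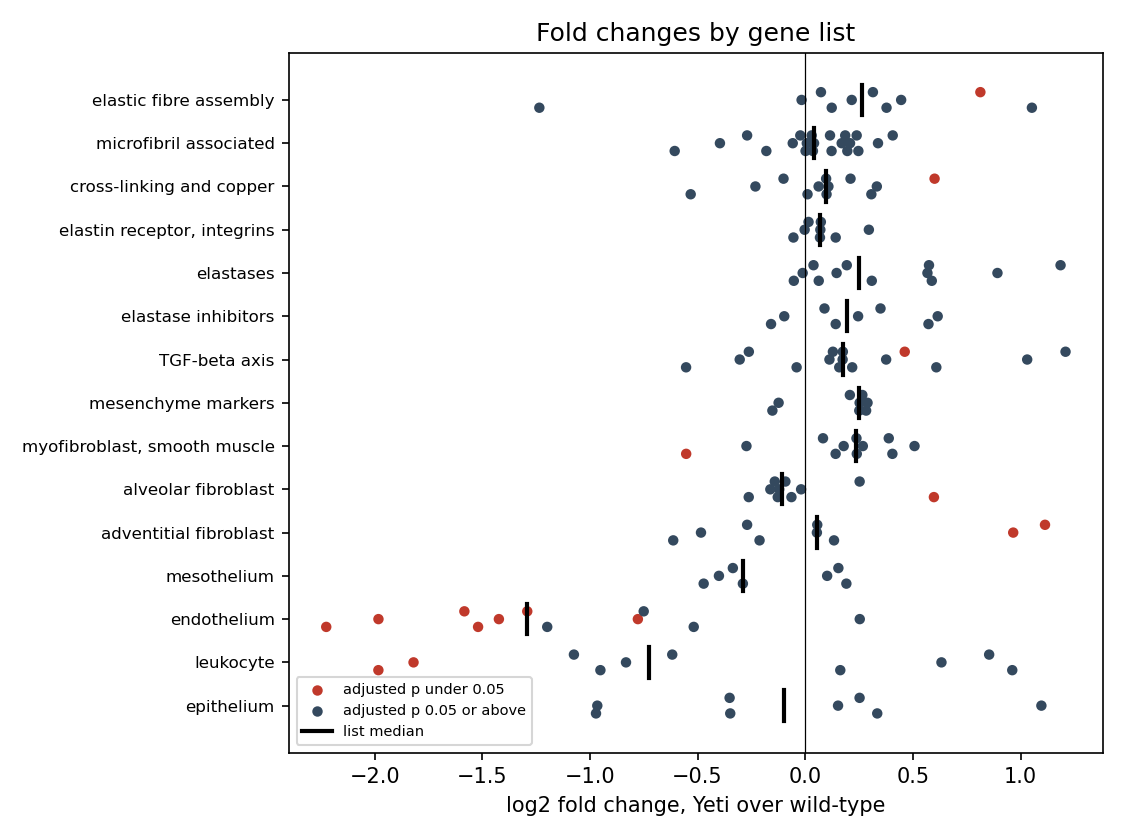
Log2 fold change (x axis, Yeti over wild-type, authors' deposited table) of every tested gene in the member list, the 6 further pathway lists and 8 marker lists, with list medians as black bars and genes past an adjusted p of 0.05 in red. The member median of 0.27 lies close to those of the elastase list (0.25) and of the mesenchyme (0.25) and smooth muscle (0.24) markers. The endothelial median lies at -1.29.

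The labelled mesenchyme was checked on marker lists. All 8 general mesenchymal markers were detected, with means from 2268 normalized counts for Meox2 to 151407 for Col3a1 in the authors' deposited table. The transcripts of the gated proteins were not at 0, with means of 4871 for Ptprc (CD45), above that of Meox2, 1279 for Pecam1 (CD31) and 97.6 for Epcam in the authors' deposited table. Some of the marker lists differed between the groups beside Eln. For the counts of markers that passed, the shares over all tested genes are 1.85% higher and 0.994% lower in Yeti. The 8 mesenchymal markers had a median log2 fold change of 0.25, within a range of -0.15 to 0.29, with 0 passed, in the authors' deposited table, and their summed fitted level was 493943 in wild-type libraries and 578996 in Yeti libraries. For 11 myofibroblast and smooth muscle markers, cells that make elastin, the median was 0.24, with 0 higher and 1 lower, Aspn at -0.55 ± 0.13 (SE), in the authors' deposited table. Their summed level was 92187 in wild-type libraries and 108282 in Yeti libraries. Of 10 alveolar fibroblast markers 1 rose, the lipid droplet coat gene Plin2 (median -0.11), and of 9 adventitial markers 2 rose, Ly6a and Ly6c1 (median 0.05), in the authors' deposited table, while 0 of 7 mesothelial markers passed (median -0.29). The adventitial log2 fold changes ran from -0.61 for Dpp4 to 1.11 for Ly6a, with 5 above 0 and 4 below it. The alveolar list summed to 344618 in wild-type libraries and 316627 in Yeti libraries, and the adventitial list to 145170 and 136977. For the mesothelial list the sums were 16622 and 15514. Of 11 endothelial markers 7 fell, Tie1, Tek, Emcn, Cldn5, Egfl7, Prox1 and Lyve1, with a median of -1.29 and a summed level of 7297 in wild-type libraries and 4615 in Yeti libraries, in the authors' deposited table. Pecam1, the gene of the gated CD31, was the 1 of the 11 above 0, at 0.25 ± 0.46 (SE), and did not pass. Emcn and Prox1 were scarce, at means of 40.4 and 59.0 normalized counts in the authors' deposited table. Of 10 leukocyte markers 2 fell, the antibody genes Igkc and Jchain, the median was -0.73, and the summed level was 140073 in wild-type libraries and 77177 in Yeti libraries, in the authors' deposited table. Igkc alone stood at 76522 in wild-type and 21683 in Yeti libraries, and Jchain at 28640 and 7247, by the authors' deposited table. The log2 fold changes of 4 of the 10 were above 0 without passing, Cd68 at 0.96 ± 0.45 (SE, unadjusted p = 0.0318, adjusted p = 0.420), Cd74 at 0.85, Lyz2 at 0.63 and Ptprc at 0.16, in the authors' deposited table. Of 8 epithelial markers 0 passed, with a median of -0.10 and summed levels of 8194 and 6328 in the authors' deposited table. At an unadjusted p under 0.05, 2 of the 8 were lower, the gated Epcam and Scgb1a1, both at -0.97, where 4.0% of all tested genes are. Their adjusted p-values were 0.188 and 0.211, and 4 of the 8 markers stood above 0, in the authors' deposited table. The part of these lists in the Eln result was not tested.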

How the data were processed

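RNA-seq was done on 6 libraries, grouped by sample title. The submitters' processing notes name FastQC, STAR, DESeq and the builds GRCm38 and mm10, with no versions. Which counter, strand setting and annotation served is not given in the sources used here. Values came from 1 table; the deposited table holds a mean signal per gene (the count divided by a size factor), the log2 fold change, its SE in log2, the Wald score and the p-value with its adjustment, all made by the authors per the file headers. Fold changes are read as Yeti over wild-type from the table's name. The mean normalized counts sum to 26646632, the average depth per library after scaling. Of 29322 genes, 20212 had an adjusted p, and all 10 members did.

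With no counts per library, the authors' test was used as deposited, called at an adjusted p under 0.05. Derived here (Python 3.11.15, scipy 1.17.1) were 95% intervals (1.96 SE), fitted group levels assuming equal group sizes, and the CV implied by the SE net of counting error; these cover only what the authors' SE covers. Coordinates and exon lengths come from GENCODE M21 on GRCm38, which matched 29185 genes. Named genes were the 10 members, the genes past the threshold and the most abundant gene of each further list, and genes overlapping a member. Outside that rule, Tgfbi, Tgfbr3 and the marker genes named were chosen with their values seen. Members and lists were chosen with earlier results of these data known. Of the listed genes, 4 Serpina1 paralogues were not analysed here, and Ccn2 was matched by its older symbol. The values of 1 further gene and 1 motif are not reported here. On simulated data (20212 genes, 20 draws, 200 genes changed), 54.9% of genes with a true log2 change of 1 were recovered, and 5.85% of calls were false. The alternatives were other sets of genes for the adjustment, Bonferroni, centring and transcript length.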

Additional observations from a re-analysis of the deposited data

How the results depend on the processing

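Eln kept its call under 6 of the 7 alternatives tried. Its adjusted p-values ran from 0.00199 to 0.00386 over the authors' adjustment and those 6. Under Bonferroni over the 20212 genes the count of members past the threshold was 0, and Eln, still at 0.81, had an adjusted p of 0.766; that method passes 200 genes in place of 574. No other member passed under any alternative, and Ltbp2 came nearest, at 0.141 to 0.246 apart from Bonferroni. Fbn2 could not be tested over genes with a mean of at least 100. These alternatives reuse the deposited p-values or, when centring, the deposited SEs, so they vary neither the libraries nor the fit behind a call. The signs were not put to a test, since the alternatives keep the deposited fold changes or, when centring, shift all of them slightly. In the cross-linking list the count was 0 under Bonferroni, and in the TGF-β list it was 0 under Bonferroni, over all genes with a p-value, and when fold changes were centred on the more abundant tested genes, where Smad7 had an adjusted p of 0.0561. By longest transcript, levels per kilobase moved beyond the between-library spread for Eln (27842), Ltbp4 (27839), Fbln5 (1319) and Efemp2 (1191). No paired analysis was possible because the table gives no values per library, and leaving out each replicate was not run for the same reason. By the SE of the authors' fit, counting error made up 25.9% of the variance of the Fbn2 fold change. It was at most 2.39% for any other member. The rest, the spread between libraries as that fit estimates it, was the larger part for all 10, and it was not measured from single libraries.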
